A study of Sus scrofa with 2 samples.

Results

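miR-23a, miR-23b, miR-24, miR-27a and miR-27b are microRNAs (miRNAs) made from a pair of gene clusters, each of which carries 1 miR-23, 1 miR-27 and 1 miR-24 hairpin. The members were chosen by name. Every sequence tag listed under one of these names was taken, whatever species the name came from, and its reads were summed per name and arm of the hairpin. This gave 10 names and arms of the 1385 in the lists, with 79038 reads at 30 days and 8720 reads at 180 days. Small RNA came from whole testis of Junmu-1 boars, sexually immature at 30 days of age and sexually mature at 180 days. No treatment, transgene or sorting is named for either age. Each age is 1 library from pooled RNA of 3 boars, so there is no replicate spread, no test and no p-value. Every interval below covers counting error only, and every ratio compares these libraries. Levels are RPM, reads per 1000000 miRNA-matched reads of a library, of which there were 7525725 at 30 days and 852209 at 180 days.

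A miRNA cluster is transcribed as 1 long RNA from which the hairpins are cut. One arm of each hairpin is usually loaded into an Argonaute protein, where bases 2 to 8, the seed, select target messages, and the other (star) arm is mostly lost. The miR-23, miR-27 and miR-24 clusters are broadly expressed and best known from blood vessels, muscle and blood cells. miR-27 is known for its part in fat cell differentiation, miR-24 for its part in the cell cycle, and miR-23 for targeting glutaminase. For all of them the main arm is the 3′ (3p) arm of the hairpin.

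In the RefSeq annotation of the pig assembly Sscrofa11.1, the a cluster lies on chromosome 2, where MIR23A spans 65308117 to 65308186, MIR27A 65308294 to 65308375 and MIR24-1 65308453 to 65308524, all within 408 bp. The b cluster lies on chromosome 10, where MIR24-2 spans 27079417 to 27079496, MIR27B 27079963 to 27080042 and MIR23B 27080197 to 27080276, within 860 bp. These 3 genes fall inside the span annotated for the protein-coding gene C10H9orf3 (27078115 to 27472347). The table used gives no exons or strands, so an exonic or intronic position is not stated. Pig gene numbers put MIR24-1 beside MIR23A, whereas in human and mouse the gene numbered 24-2 is the one beside miR-23a.

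The main-arm sequences are shown because the a and b forms differ at a single base, on which the whole comparison of the clusters rests. They are printed as the deposited lists give their miRNA entries, with T for U. Capitals mark the seed and, in miR-23 and miR-27, base 19 counted from the 5′ end.
miR-23a: aTCACATTgccagggattTcca
miR-23b: aTCACATTgccagggattAccac
miR-27a: tTCACAGTggctaagttcCgc
miR-27b: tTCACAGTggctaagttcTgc
miR-24: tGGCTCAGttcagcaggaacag
From miR-23a to miR-23b the difference is T19A, the only one over 22 bases compared, and from miR-27a to miR-27b it is C19T, the only one over 21 bases. Both lie outside the seed, so the a and b forms share it. The seeds of miR-23 and miR-27 differ from each other at 1 base, T7G, while that of miR-24 is unrelated. A tag of 18 bases that starts at base 1 cannot tell the a form from the b form.

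Markers of the testis were read in both libraries. Names of miR-202, a gonadal miRNA, summed to 68481 RPM in the younger animals and 110872 RPM in the older ones. These names differed in direction. The ratio, 180 over 30 days, was 1.70 for miR-202-5p and 2.39 for miR-202*, but 0.628 for miR-202-3p and 0.667 for miR-202. The late germ cell miRNAs miR-34b, miR-34c and miR-449 had 72 reads at 30 days and 27805 reads at 180 days. Tag numbers, which follow falling read counts over the whole library, allow miRNA matches to be at most 59.2% of the library at 30 days and 7.08% at 180 days. Every ratio below is therefore one within the miRNA pool. On the log2 scale all ratios would shift by -0.91 with TMM scaling, by -0.89 with median-of-ratios scaling and by -3.06 per read of the whole library at the lowest totals. In whole tissue, fewer cells of a type and less RNA per cell cannot be told apart.

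miR-23 took a larger share of the clusters' reads in the mature testis and miR-27 a smaller one, while their sum hardly differed within the miRNA pool. The 5 main arms together had 76405 reads (10153 RPM) at 30 days and 8497 reads (9971 RPM) at 180 days, a ratio of 0.982 (0.960 to 1.004). Of these reads, miR-23 held 55.8% at 30 days and 72.4% at 180 days (exact binomial 95% intervals of 55.5 to 56.2% and 71.4 to 73.3%). miR-27 held 29.6% (29.2 to 29.9%) and 17.0% (16.2 to 17.8%). miR-24 held 14.6% (14.4 to 14.9%) and 10.6% (9.98 to 11.3%). These shares do not depend on how the libraries are scaled. They do depend on how readily each miRNA is ligated and amplified, so the order of miR-23, miR-27 and miR-24 within a library is one of reads.

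Each miR-23 form was somewhat higher in the 180-day library per miRNA read. miR-23a had 23709 reads at 30 days and 3456 at 180 days, or 3150 and 4055 RPM. Its ratio, 180 over 30 days, was 1.29 (exact conditional 95% interval 1.24 to 1.33). miR-23b, from the other cluster, had 18930 and 2692 reads, or 2515 and 3159 RPM, with a ratio of 1.26 (1.21 to 1.31). The intervals of the 2 forms overlap, and both ratios fall below 1 with each of the other scalings, to 0.684 and 0.667 with TMM.

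Each miR-27 form was lower, under every scaling tried. miR-27a had 9049 and 508 reads, or 1202 and 596 RPM, with a ratio of 0.496 (0.452 to 0.542). miR-27b had 13537 and 938 reads, or 1799 and 1101 RPM, with a ratio of 0.612 (0.572 to 0.654). miR-24, whose main arm is the same from both clusters and cannot be divided between them, had 11180 and 903 reads. That is 1486 and 1060 RPM and a ratio of 0.713 (0.666 to 0.763), between those of miR-23 and miR-27. In rank of abundance among all names, miR-23a stood at 38 and 37 in the 30-day and 180-day libraries and miR-23b at 44 in both, while miR-27a went from 65 to 91, miR-27b from 53 to 68 and miR-24 from 57 to 71.

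**Figure D1:**
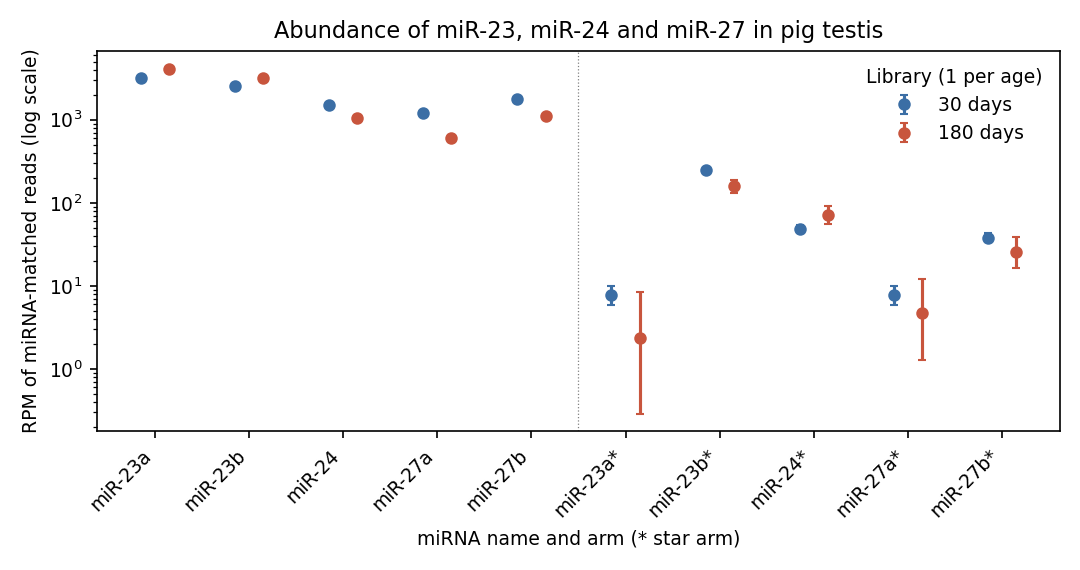
Level of each name and arm in RPM (log axis) in the 30-day and the 180-day library, 1 library per age, with exact 95% intervals for counting error. Both miR-23 main arms lie higher at 180 days (4055 and 3159 RPM), and miR-24 and both miR-27 main arms lie lower, while the star arms lie at 248 RPM or less.

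A ratio was called when it was 2 or more, or 0.5 or less, with an interval excluding 1 and 20 or more reads over both libraries. Of the 469 names tested, 29.4% were called higher and 11.3% lower at 180 days. Of the 10 members, 0 were called higher, 1 (miR-27a) was called lower and 9 were neither. The members' median log2 ratio was -0.61, against 0.22 over all names tested. Their range ran from -1.72 for miR-23a* to 0.55 for miR-24*, inside the range of all names, from -4.04 to 12.3. A count of 0 was taken as 3 reads, which is 0.399 RPM at 30 days and 3.52 RPM at 180 days. The shares called and the median over all names therefore also depend on depth. For example, miR-876-3p, with 22 reads at 30 days and 0 at 180 days, entered at 0.27.

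**Figure D2:**
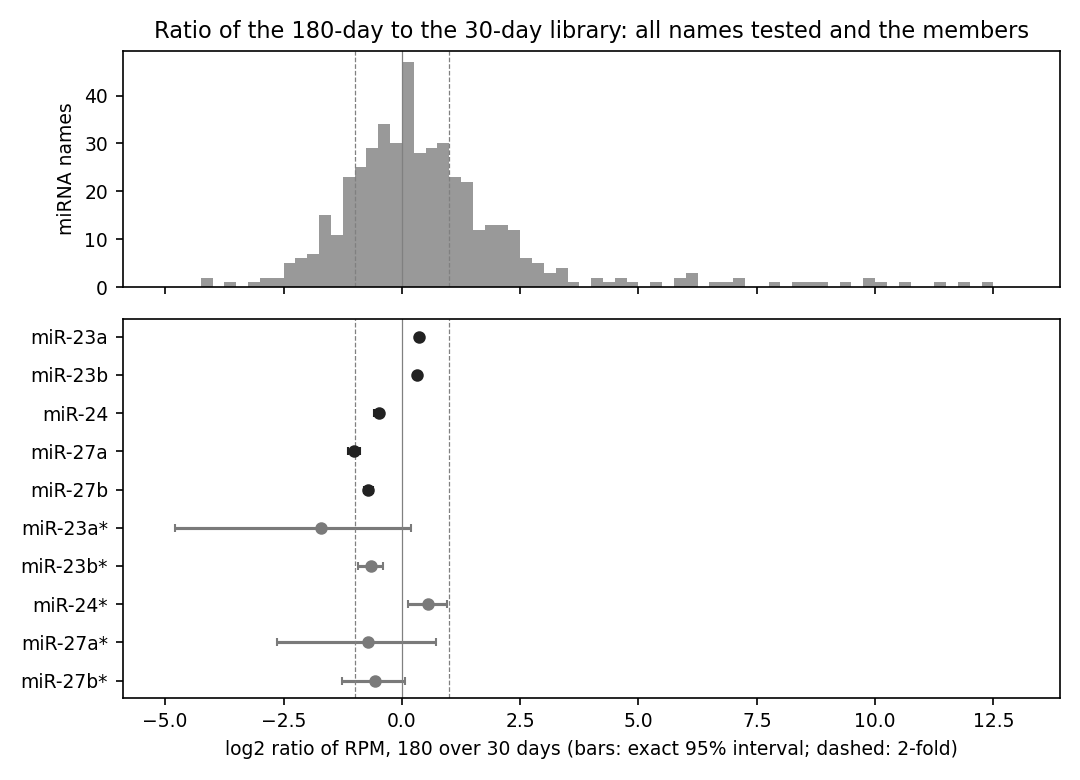
Upper panel: number of miRNA names by log2 ratio of the 180-day to the 30-day library, for all 469 names tested. Lower panel: the log2 ratio of each member with its exact 95% interval, where miR-27a at -1.01 is the only one past the dashed 2-fold lines with an interval excluding 0.

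The change in the balance of miR-23 and miR-27 was seen in each cluster. By the deposited names, there were 2.62 reads of miR-23a for each read of miR-27a at 30 days and 6.80 at 180 days, a 2.60-fold change (exact conditional 95% interval 2.36 to 2.86). For miR-23b and miR-27b the numbers were 1.40 and 2.87, a 2.05-fold change (1.90 to 2.22). Both clusters summed went from 1.89 to 4.25 reads of miR-23 for each read of miR-27, a 2.25-fold change (2.12 to 2.39). miR-24 stood in between: 0.495 and 0.624 reads of miR-24 for each read of miR-27 made a change of 1.26-fold (1.16 to 1.38).

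By the deposited names, the a and b clusters, compared with each other, differed little between the ages. miR-23a plus miR-27a stood at 4353 and then 4651 RPM, with a ratio of 1.07 (1.03 to 1.10). For miR-23b plus miR-27b the levels were 4314 and 4260 RPM, with a ratio of 0.987 (0.954 to 1.02). The a names held 50.2% (49.8 to 50.6%) of the miR-23 and miR-27 reads in the 30-day library and 52.2% (51.1 to 53.3%) in the 180-day library. For miR-23 alone the a share was 55.6% (55.1 to 56.1%) and 56.2% (55.0 to 57.5%), a difference within the counting intervals. For miR-27 alone it was 40.1% (39.4 to 40.7%) and 35.1% (32.7 to 37.7%).

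The miR-27a name held many reads that carry no evidence for the a form. The tag below ends at base 18, 1 base before the a and b forms differ, and was the most read tag listed under miR-27a. A similar tag of miR-23 was listed under miR-23b. The capital marks the last base, base 18.
miR-27, 18 bases: ttcacagtggctaagttC
miR-23, 18 bases: atcacattgccagggatT
The miR-27 tag had 5717 reads at 30 days and 289 at 180 days. It made up 63.2% of the reads named miR-27a in the 30-day library (62.2 to 64.2%) and 56.9% in the 180-day library (52.5 to 61.2%). As a share of all miR-27 reads it went from 25.3% (24.7 to 25.9%) to 19.99% (18.0 to 22.1%). The miR-23 tag was much rarer, with 314 and 16 reads, 0.736% (0.657 to 0.822%) and 0.260% (0.149 to 0.422%) of miR-23.

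Reading base 19 from the tags themselves gave a different a share for miR-27 and nearly the same one for miR-23. Of the miR-27 reads with the a or the b base, 18.1% had the a base at 30 days (17.5 to 18.7%) and 17.8% at 180 days (15.7 to 20.2%), against about 40% and 35% by name. Of such miR-23 reads, 56.1% (55.7 to 56.6%) and 56.7% (55.4 to 57.9%) had the a base. Tags that end before base 19 held 26.7% of miR-27 reads at 30 days and 20.95% at 180 days (26.1 to 27.3% and 18.9 to 23.1%), but 0.875% and 0.309% of miR-23 reads. Among reads named miR-27b, 99.1% carried the b base at 30 days and 99.3% at 180 days. Among reads named miR-27a, 32.8% and 39.6% carried the a base.

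**Figure D3:**
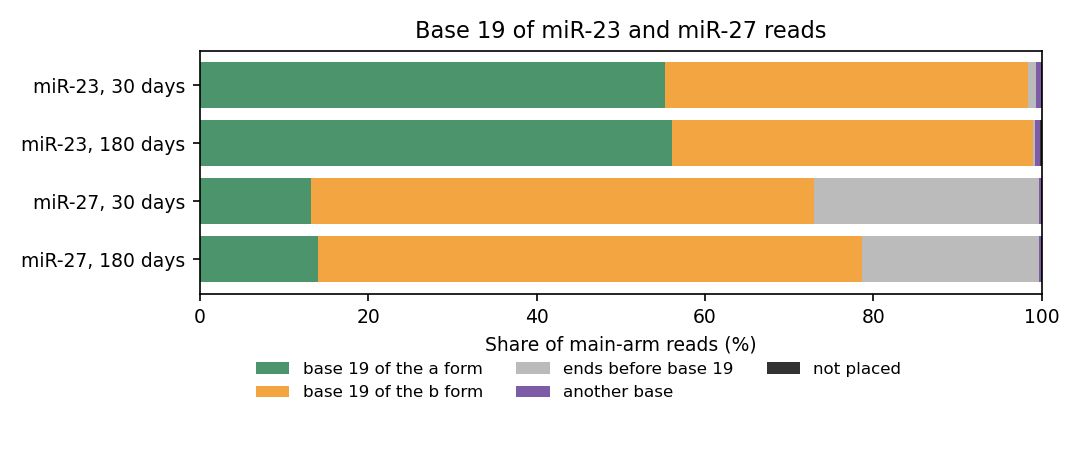
Share of the main-arm reads of miR-23 and miR-27 in each library by the base at position 19. The a base is seen in 55.2% and 56.1% of miR-23 reads but in 13.2% and 14.0% of miR-27 reads, of which 26.7% and 20.95% end before that base.

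With base 19 in place of the name, the a and b forms of miR-27 had nearly equal ratios. Reads with the a base stood at 396 and 238 RPM, with a ratio of 0.601 (0.519 to 0.693). Reads with the b base stood at 1792 and 1097 RPM, with a ratio of 0.612 (0.572 to 0.654). The a form then no longer met the 2-fold rule, so the single call among the members rested on tags that cannot be assigned. For miR-23 the ratios by base 19 were 1.29 (1.25 to 1.34) for the a base and 1.26 (1.21 to 1.32) for the b base. By this reading there were 7.90 miR-23 reads for each miR-27 read of the a cluster at 30 days and 17.0 at 180 days, a 2.15-fold change (1.85 to 2.50). In the b cluster there were 1.36 and 2.82, a 2.07-fold change (1.91 to 2.24). Among the reads counted, the clusters thus differed in level of miR-27 relative to miR-23 within each library, and their changes with age had overlapping intervals. The miR-27 reads that end before base 19, 26.7% at 30 days and 20.95% at 180 days, are left out here. The miR-27 tag of 19 bases described next is counted as b. How these reads divide between the clusters cannot be told, so the difference in level holds only for the reads as counted.

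A base at the very end of a tag may have been added after cutting, so base 19 was also required to be followed by the matching base 20. The tag of 19 bases that ends in the b base of miR-27 had 4450 and 216 reads, 19.7% (19.2 to 20.2%) and 14.9% (13.1 to 16.9%) of miR-27. Its last base T cannot be told from a T added to the shared tag of 18 bases. The 19-base tag with the a base had 208 and 6 reads. With both bases required, the a share of miR-27 was 23.5% at 30 days (22.7 to 24.3%) and 21.4% at 180 days (18.7 to 24.2%), and that of miR-23 was 55.4% (54.9 to 55.9%) and 55.9% (54.5 to 57.2%). The changes in miR-23 for each miR-27 were 2.06-fold (1.76 to 2.41) in the a cluster and 1.78-fold (1.63 to 1.95) in the b cluster.

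**Figure D4:**
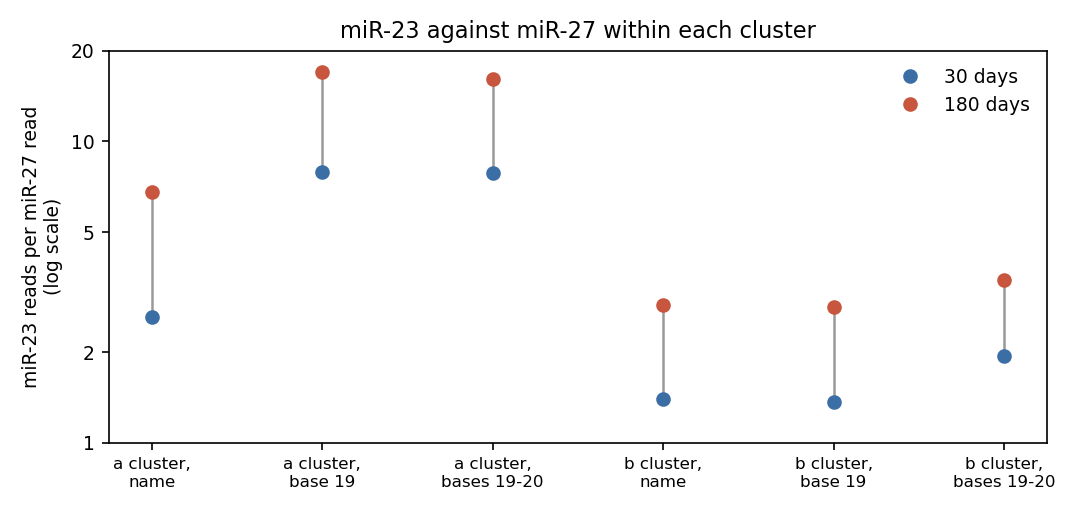
Reads of miR-23 for each read of miR-27 (log axis) at 30 and 180 days in the a and b clusters, with the forms told apart by deposited name, by base 19, or by bases 19 and 20. All 6 pairs lie higher at 180 days, and the a cluster moves from 2.62 and 6.80 by name to 7.90 and 17.0 by base 19.

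miR-27 differed from its partners in length, with many short tags. Tags of 18 or 19 nucleotides held 50.0% of the miR-27 reads at 30 days and 38.7% at 180 days. The same lengths held 9.35% and 7.04% of miR-23 reads, 0.242% and 0.221% of miR-24 reads, and 2.31% and 1.87% of all miRNA-matched reads. The mean length was 19.66 nucleotides at 30 days and 19.99 at 180 days for miR-27, 21.65 and 21.66 for miR-23, and 22.5 and 22.3 for miR-24. No listed tag is shorter than 18 nucleotides, so any shorter miR-27 pieces are not counted here.

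Short miR-27 tags had lower ratios than full-length ones. The ratio was 0.439 (0.391 to 0.492) for tags of 18 nucleotides, 0.434 (0.380 to 0.493) for 19, 0.544 (0.466 to 0.632) for 20 and 0.745 (0.684 to 0.809) for 21. Over all miRNA-matched reads, those of 18 nucleotides had a ratio of 0.753 (0.733 to 0.773) and those of 21 one of 1.07 (1.06 to 1.07). Tags of 18 nucleotides of miR-23 had a ratio of 0.646 (0.478 to 0.857), against 1.57 (1.48 to 1.66) for its tags of 21. miR-24 went the other way, with a ratio of 1.32 (1.07 to 1.63) for tags of 20 nucleotides, 0.720 (0.632 to 0.818) for 22 and 0.654 (0.592 to 0.720) for 23. Over all miRNA-matched reads the order was not one of length either, since tags of 20 nucleotides had 0.955 (0.945 to 0.965) and those of 22 had 0.898 (0.895 to 0.901). The part of length in the miR-27 ratio was examined only by holding it fixed. With tags of 21 and 22 nucleotides alone, miR-23 reads for each miR-27 read went from 3.04 to 5.85, a 1.92-fold change (1.76 to 2.10).

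**Figure D5:**
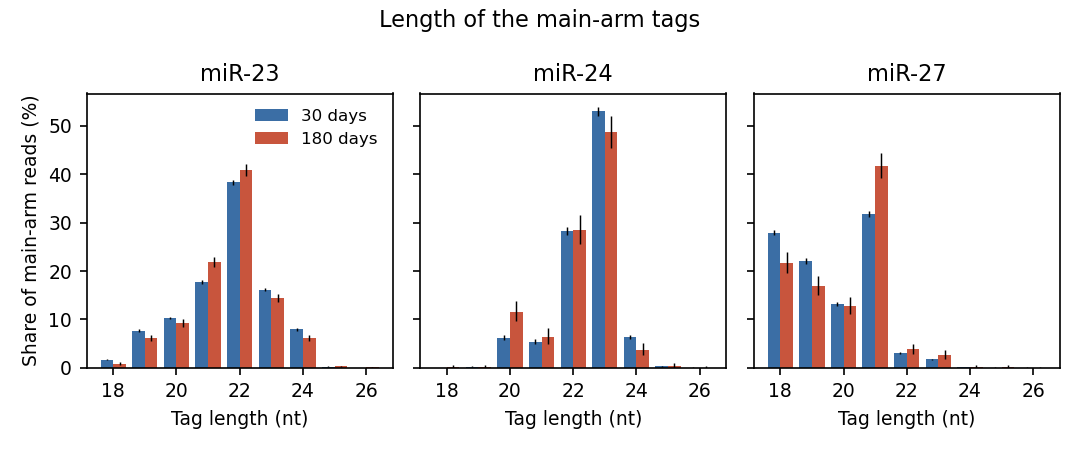
Share of main-arm reads by tag length in nucleotides for miR-23, miR-24 and miR-27, in the 30-day and the 180-day library, with exact 95% intervals. miR-23 peaks at 22 and miR-24 at 23 nucleotides, while miR-27 has a peak at 21 and another at 18, the second of which falls from 27.9% to 21.7%.

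The 3′ ends also set the miRNAs apart, and the tags with 1 added base below are shown because they rank first for miR-24 and, in the 30-day library, second for miR-23b. The capital marks the added base.
miR-24 plus T: tggctcagttcagcaggaacagT
miR-23b plus T: atcacattgccagggattaccacT
The most read miR-24 tag was this one, of 23 nucleotides, with 5350 reads at 30 days and 383 at 180 days. It held 47.9% of miR-24 reads in the 30-day library (46.9 to 48.8%) and 42.4% in the other (39.2 to 45.7%), more than the tag without the T, which had 2569 and 200 reads. Other single added bases were rare, with an A in 89 and 8 reads. A G, which the listed dog entry of miR-24 carries there, was seen in 25 and 4 reads. Additions of 2 or more bases were seen in 694 and 33 reads of miR-24. Addition of a T to miR-23b gave 2558 and 272 reads, 13.5% (13.03 to 14.01%) and 10.1% (8.99 to 11.3%) of miR-23b. Its ratio was 0.939 (0.826 to 1.06), against 1.45 for the most read miR-23b tag, of 22 nucleotides and without it.

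For miR-23a a single T and a single A were added about equally often, in 1498 and 1473 reads at 30 days and in 170 and 163 at 180 days. Of the miR-23a reads that reached base 22 with no mismatch, 75.7% had nothing added at 30 days (74.9 to 76.4%) and 79.6% at 180 days (77.6 to 81.5%). miR-27b reads that reached base 21 had nothing added in 91.5% (90.8 to 92.2%) and 90.6% (87.8 to 92.9%). Whether an added base is encoded in the pig hairpin was not tested, since the genome was not used here.

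The 5′ end, which sets the seed, was mostly at base 1. This start was carried by 94.7% (94.5 to 94.9%) and 96.4% (95.9 to 96.9%) of miR-23 reads at the earlier and later age, by 97.5% and 98.2% of miR-27 reads, and by 94.7% and 94.1% of miR-24 reads. A second start was shared by miR-23 and miR-27 but not by miR-24, at base 4. The tags below show it, with the shifted seed in capitals.
miR-23a from base 4: aCATTGCCagggatttcca
miR-23b from base 4: aCATTGCCagggattacca
miR-27b from base 4: aCAGTGGCtaagttctgc
These had 360, 225 and 228 reads at 30 days and 25, 22 and 10 at 180 days. In all, starts at base 4 held 3.32% (3.15 to 3.49%) and then 2.001% (1.67 to 2.38%) of miR-23 reads, and 1.40% (1.25 to 1.56%) and 0.899% (0.480 to 1.53%) of miR-27 reads. In miR-24 the second start was at base 2, with 3.60% (3.26 to 3.96%) and 2.77% (1.80 to 4.06%).

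Star arms were scarce and came mainly from the b cluster. Their listed entries are shown with the seeds in capitals, since star arms, unlike the main arm of miR-24, differ between the clusters. The miR-24-1* and miR-24-2* entries differ only from base 16 of miR-24-2* on. The most read miR-24* tags, all named miR-24-2*, start 1 base before the miR-24-2* entry shown. Their seed is thus the one marked in miR-24-1*.
miR-23b*: tGGGTTCCtggcatgctgattt
miR-23a*: gGGGTTCCtggggatgggattt
miR-27b*: aGAGCTTAgctgattggtgaac
miR-27a*: aGGGCTTAgctgcttgtgagca
miR-24-2*: tGCCTACTgagctgaaacacag
miR-24-1*: gTGCCTACtgagctgatatcagt
miR-23b* had 1863 reads at 30 days and 134 at 180 days (248 and 157 RPM), a ratio of 0.635 (0.529 to 0.757). It was the star arm with the most reads, at 8.96% of the reads of its hairpin in the 30-day library (8.57 to 9.36%) and 4.74% in the 180-day library (3.99 to 5.59%). miR-23a* had 58 and 2 reads, 0.244% (0.185 to 0.315%) and 0.0578% (0.00701 to 0.209%) of its hairpin. The main arms of miR-23a and miR-23b therefore stood at like levels while their star arms did not.

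miR-27b* had 286 and 22 reads, with a ratio of 0.679 (0.419 to 1.05), and miR-27a* had 58 and 4 reads, with a ratio of 0.609 (0.161 to 1.65). Neither ratio can be told from 1 at this depth. miR-23a* and miR-27a* together held 5.12% of the star reads of miR-23 and miR-27 at 30 days (4.25 to 6.11%) and 3.70% at 180 days (1.37 to 7.89%), far below the a share of the main arms. The balance of miR-23 and miR-27 differed less in the star arms: there were 5.58 reads of miR-23 star arms for each read of miR-27 star arms at 30 days and 5.23 at 180 days, a change of 0.937-fold (0.601 to 1.51). This interval lies below the change of the main arms, 2.25-fold. In the b cluster alone, which held most of these star reads, the star arms changed 0.935-fold (0.581 to 1.57). The b main arms changed 2.05-fold by name and 1.78-fold with both bases required.

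The opening base of miR-23b* varied more than that of any main arm. Starts at base 1 held 61.6% (59.3 to 63.8%) and 75.4% (67.2 to 82.4%) of its reads at 30 and 180 days, and starts at base 2 held 30.4% (28.3 to 32.5%) and 14.2% (8.76 to 21.3%). miR-24* had 368 and 61 reads, with a ratio of 1.46 (1.10 to 1.92), and its share of the hairpin reads went from 3.19% (2.87 to 3.52%) to 6.33% (4.87 to 8.05%). Without tags of 1 read its ratio was 1.32 (0.962 to 1.78), an interval that includes 1. So do the intervals of miR-24-1* alone, 1.56 (0.768 to 2.90), and miR-24-2* alone, 1.24 (0.876 to 1.72). Reads named miR-24-2* made up 81.5% of those named miR-24-1* or miR-24-2* at 30 days (77.1 to 85.3%) and 77.8% at 180 days (64.4 to 88.0%). By the human and mouse arrangement that is the star arm of the a cluster, the opposite of the picture from the miR-23 and miR-27 star arms. Which pig hairpin gives it was not tested, since hairpin sequences were not used here. Of 7 reads at 180 days that carried a platypus name for miR-24*, 6 belonged to 1 tag, 25 nucleotides long and unmatched at 5 bases. The miR-24* ratio of 1.46 includes these reads, against 1 read with that name at 30 days.

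Other miRNAs of blood vessels and low oxygen differed among themselves. Of 10 such names, 3 were called higher, 2 lower and 5 neither, beside 29.4% higher and 11.3% lower over all names tested, and their median log2 ratio was 0.17 against 0.22. The 3 names of the endothelial miR-126 did not share a direction: miR-126-5p had 1.90 (1.69 to 2.13), miR-126 1.53 (1.28 to 1.82) and miR-126-3p 0.681 (0.434 to 1.02). miR-210, which is induced by low oxygen, went from 17.3 to 78.6 RPM. miR-222 went from 4298 to 1209 RPM. Summed marker names of endothelium had a ratio of 1.65 (1.501 to 1.81), of smooth muscle 2.86 (2.81 to 2.92), of mesenchyme 0.647 (0.640 to 0.654), of red blood cells 2.34 (2.25 to 2.43) and of white blood cells 1.18 (0.975 to 1.42). Names within these sums differed. Of the red blood cell names, miR-451 had a ratio of 2.46 (2.36 to 2.56) and miR-486-5p one of 0.697 (0.533 to 0.898). Of the white blood cell names, miR-223 had 2.60 (1.64 to 4.003), miR-142-5p 1.33 (0.954 to 1.81), miR-142-3p 0.960 (0.445 to 1.85) and miR-150 0.836 (0.599 to 1.14). The part of these cell types in the members' ratios was not tested.

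The names most like the summed main arms were picked from 147 others with 1000 or more reads by the nearest log2 ratio, over these 2 libraries only. They were miR-21 (0.983, 0.959 to 1.01), miR-28-3p (0.991, 0.933 to 1.05), miR-532-5p (0.999, 0.860 to 1.15) and miR-1306 (0.965, 0.786 to 1.17). Among these, miR-21 was also near in level, at 8582 and 8435 RPM.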

How the data were processed

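Per the labels' protocols, total RNA of 3 boars was pooled per age, small RNA was cut from a gel, ligated, amplified and sequenced, and no molecular identifiers are named, so reads are not independent molecules. The authors deposited, per library, distinct tags of 18 to 30 nucleotides with raw read counts, used as they stand, and 1 miRNA entry for each. Neither aligner, miRBase release nor build was given in the sources used here. The remaining columns hold numbers of bases (lengths, up to 2 mismatches, up to 6 unmatched). An alignment score of each tag, as deposited by the authors, was not used.

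Species prefixes and copy numbers were dropped, a bare member name was read as the 3p arm and a star as the 5p arm, and reads were summed. For the base at position 19, tags were placed ungapped on the first 18 bases (12 or more matches, at most 2 mismatches, starts shifted by -3 to 4). Shares have exact Clopper-Pearson 95% intervals and ratios exact conditional ones (Python 3.11.15, SciPy 1.17.1). In place of a read count of 0, 3 reads were used (0.399 RPM at 30 days, 3.52 at 180 days), for calls, medians, the range and the plotted distribution of all names. Scaling alternatives came from edgeR 4.0.16 (TMM) and DESeq2 1.42.0 (size factors). The calculations were tested on simulated data. Named were all members, their most read tags, a list for blood vessels and low oxygen, cell markers and the 4 nearest ratios. The members and lists were chosen with earlier results of these data known.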

Additional observations from a re-analysis of the deposited data

Results flagged for a closer look

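Some tags of these sequences carried names next to those of the members, outside the comparisons above, at more reads than a count of 0 allows (3 reads). The name miR-24b, of a frog entry, had 194 reads at 30 days and 23 at 180 days, of which 169 and 20 began with the first 16 bases of miR-24. miR-27d, of a zebrafish entry, had 182 and 8 reads, of which 160 and 7 began with the first 16 bases of miR-27. miR-27c, of zebrafish and frog entries, had 112 and 6 reads, and 72 and 1 of them began so. miR-27e, of a zebrafish entry, had 8 reads at 30 days, and 4 of these began so. With these names added, miR-23 reads for each miR-27 read changed 2.26-fold (2.13 to 2.40) from 30 to 180 days.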

How the results depend on the processing

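No paired analysis was possible because each age had 1 library. Values below are, in this order, the ratio of miR-23a plus miR-27a, that of miR-23b plus miR-27b, the a share at 30 and at 180 days, and the change in miR-23 for each miR-27. With perfect matches only they were 1.31, 1.24, 54.3%, 55.6% and 1.84. By base 19 they were 1.21, 0.988, 45.4%, 50.6% and 2.10. By bases 19 and 20, chosen after seeing the data, they were 1.21, 1.07, 48.0%, 51.1% and 1.85. With tags of 21 and 22 nucleotides, also chosen after seeing the data, they were 1.43, 1.203, 50.7%, 55.0% and 1.92. In each of these 4 settings 0 of the 10 members were called higher or lower. With perfect matches only, miR-23a* and miR-24* had fewer than 20 reads and could not be called. In the 4 settings miR-27a had ratios of 0.627, 0.601, 0.625 and 0.780. The last, with tags of 21 and 22 nucleotides, had an interval of 0.583 to 1.03, which includes 1. By construction, all 4 settings leave out the shared miR-27 tag of 18 bases. The summed a share also depends on the mix of miR-23 and miR-27, which differ in a share. Within each, the a share by base 19 hardly differed between the ages: 56.1% and 56.7% of miR-23, 18.1% and 17.8% of miR-27.

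The ratios of the a and the b names were 0.568 and 0.525 with TMM and 0.575 and 0.531 with median-of-ratios scaling. With each of these, 7 members were called lower. Per read of the whole library, at the lowest totals the tag numbers allow, they were 0.128 and 0.118, and 10 members were called lower. The true totals are not known. Of all 469 names, 33.7% were called lower with TMM, 33.7% with median-of-ratios scaling and 84.4% at those lowest totals. Each scaling moves every ratio by the same factor, by construction, and under these 3 all 10 member ratios lay below 1, against 7 as reported. Without tags of 1 read, and with a minimum of 100 reads or none, the number of calls was again 1. Depth limits the star arms most: miR-23a* and miR-27a* had 2 and 4 reads at 180 days.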
